A study of Homo sapiens with 6 samples.

Results

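The 57 ribosome biogenesis genes described here encode nucleolar processing factors and parts of the RNA polymerase I machinery. They were taken from the deposited table by their gene symbols, and all 57 were among its 61806 genes. U87-MG, an established human glioblastoma cell line, was sequenced as total RNA in 6 libraries. A negative control (NC) gave 3 libraries, which are labelled wildtype in genotype, and the other 3 carry the labels GRIK1 siRNA and GRIK1 knockdown and are called siRNA-labelled here. No treatment time is given in the labels, and the series text names shRNA where the sample names say siRNA. Whether the numbers 1, 2 and 3 stand for replicate cultures or for different siRNA sequences is not stated, so p-values measure only the spread between these libraries, which may be technical. The comparison asks how knockdown of GRIK1, a kainate-type glutamate receptor subunit, bears on these genes.

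Ribosomes are built in the nucleolus. RNA polymerase I transcribes a long precursor RNA, small nucleolar ribonucleoproteins (snoRNPs) guide its chemical modification, and processing factors cut and fold it into the small (40S) and large (60S) subunits. Growing tumour cells spend much of their energy on this pathway, and MYC is a known activator of many of its genes. Several of these genes also carry small nucleolar RNAs (snoRNAs) in their introns, so 1 primary transcript can give a protein of the pathway and an RNA that the pathway uses.

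This shared layout was examined in the GENCODE 29 annotation of GRCh38. Of the 57 genes, 10 held 36 annotated snoRNAs, a share of 17.5%, against 208 of 11450 tested protein-coding genes (1.82%). The hosts were NCL, NOP56, NOP58, DKC1, WDR43, TSR1, PPAN, GNL3, POLR1C and TAF1D. NOP56 and NOP58, the paired core proteins of box C/D snoRNPs, held box C/D snoRNAs themselves, and DKC1, the pseudouridine synthase of box H/ACA snoRNPs, held box H/ACA snoRNAs. Sequences are shown for 5 that are of the class of RNA that the protein of their host gene binds and that hold the letters marked below. SNORD56 and SNORD86 in NOP56, SNORD70 in NOP58 and SNORA56 in DKC1 are also of that class. The search did not find these letters in them, and they are not shown. SNORA51 is shown because NOP56 also carries an RNA of the other class. All sequences shown are on the plus strand. Capitals mark the C box TGATGA and the D box CTGA near the ends of a box C/D snoRNA or the ACA 3 bases from the end of a box H/ACA snoRNA.
SNORD57: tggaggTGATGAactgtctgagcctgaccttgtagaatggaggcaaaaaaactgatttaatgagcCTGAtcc
SNORD110: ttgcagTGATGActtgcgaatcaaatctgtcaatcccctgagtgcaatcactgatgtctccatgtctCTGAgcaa
SNORD11: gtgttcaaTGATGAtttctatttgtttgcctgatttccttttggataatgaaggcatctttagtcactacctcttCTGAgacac
SNORD11B: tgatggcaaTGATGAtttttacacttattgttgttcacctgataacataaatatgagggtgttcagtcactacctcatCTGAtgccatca
SNORA51: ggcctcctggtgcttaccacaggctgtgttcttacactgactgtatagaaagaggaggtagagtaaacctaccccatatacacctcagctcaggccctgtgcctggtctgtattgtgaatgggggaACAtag
SNORA36A: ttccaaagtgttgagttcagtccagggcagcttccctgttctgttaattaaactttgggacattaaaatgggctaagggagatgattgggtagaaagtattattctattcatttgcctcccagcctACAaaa

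SNORD57 (chr20:2656939-2657010), SNORD110 (chr20:2654212-2654286) and SNORA51 (chr20:2655067-2655198) lie within NOP56. SNORD11 (chr2:202293051-202293134) and SNORD11B (chr2:202291332-202291421) lie within NOP58, and SNORA36A (chrX:154768528-154768659) lies within DKC1. Of the snoRNAs within the 57 genes, 31 had a box C/D or box H/ACA name and a sequence. Both boxes were found within 20 bases of the ends in 15 of the 21 box C/D snoRNAs, against 67.6% of the 275 annotated ones, and ACA was found at its place in 7 of the 10 box H/ACA snoRNAs, against 75.4% of 142. The mature snoRNAs were hardly counted in these libraries. The 31 had 130 counts over the 6 libraries together, and 21 of them had none, so the values below are those of the host messenger RNAs.

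Before the comparison, the targeted gene and the libraries were checked. GRIK1 had 18, 9 and 8 counts in NC 1, 2 and 3 and 15, 20 and 20 counts in the siRNA-labelled libraries 1, 2 and 3, or 0.13 to 0.38 FPKM (counts scaled to exonic length and to the library total) against 0.29 to 0.37. GRIK1 was therefore not lower in the siRNA-labelled libraries (log2 fold change 0.44, SE 0.43, edgeR adjusted p = 0.620 without the filter on low values), and each direction given here rests on labels that this gene does not back. Total counts lay between 11099909 and 14006968 per library. NC 3 stood apart from the other 5 libraries. Its highest correlation with another library was 0.968, against a lowest of 0.980 among the others, and it lay alone on the first principal component (59.5% of the variance). Its ribosomal protein genes took 9.37% of the counts, against 4.79% to 5.50% elsewhere. The mesenchymal marker VIM was abundant in every library (825 to 1076 FPKM) and CD44 lay between 50.8 and 71.6 FPKM, while the astrocytic markers GFAP and S100B and the stem cell marker SOX2 were at or below 0.28 FPKM. GFAP was nevertheless 0.05 to 0.10 FPKM under NC and 0.25 to 0.28 in the siRNA-labelled libraries (log2 fold change 1.61, edgeR adjusted p = 0.0109 without the filter). Of the other glioma markers, TNC was 24.8 FPKM in NC 3 and 144 to 163 elsewhere, CHI3L1 was 1.70 in NC 3 and 2.97 to 3.53 elsewhere, and OLIG2 lay between 0.41 and 0.83. Markers of immune (PTPRC, CD3E) and endothelial (PECAM1, CDH5) cells were at or below 0.05 FPKM, and CD68 lay between 2.11 and 4.06. The epithelial markers EPCAM and KRT8 lay between 0.91 and 3.97 FPKM and the neuronal markers RBFOX3 and SYT1 between 0.10 and 0.84. Among the fibroblast markers, COL1A1 was 26.9 FPKM in NC 3, 98.6 and 106 in the other NC libraries and 248 to 280 in the siRNA-labelled libraries, while PDGFRB was 1.97 in NC 3, 4.13 and 4.99 in the other NC libraries and above these, up to 5.60, in the siRNA-labelled ones. LUM went the other way and was highest in NC 3 (11.97 FPKM, beside 5.86 to 8.11 elsewhere). The part of these differences in the results was not tested. Calls are given with all 6 libraries and without NC 3.

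All 57 genes were expressed. They all passed the filter (a mean FPKM of 0.5 or more), which kept 15870 genes for testing. By FPKM, which takes the length of the gene into account, the highest mean levels were those of NPM1 (186), NOP10 (73.4), NCL (56.2), FBL (47.1), NHP2 (43.7) and GNL3 (43.4). The order among them was not firm. FBL ran from 42.2 to 61.9 FPKM over the libraries, NHP2 from 36.4 to 56.8 and GNL3 from 34.7 to 52.8, so that these neighbours overlapped. The lowest mean levels were those of DDX10 (1.19 FPKM), NOP2 (1.57), POLR1B (1.74) and POLR1A (1.86), again with overlapping values. POLR1A and POLR1B encode the largest subunits of RNA polymerase I and were among the lowest of the list by FPKM. This rank depends on the exonic size used, which was 19694 bases for POLR1A and 18059 for DDX10 but 4687 for NOP2. By counts per library, POLR1A (310 to 529) lay well above NOP2 (43 to 110). Together the 57 genes took 0.498%, 0.515% and 0.600% of the counts in NC 1, 2 and 3 and 0.504%, 0.524% and 0.519% in the siRNA-labelled libraries 1, 2 and 3. NPM1 alone made up 24.0% to 38.4% of this share. Without NPM1 the share was 0.351%, 0.358% and 0.370% against 0.383%, 0.388% and 0.382%, so that the groups did not overlap in these raw shares. The scaling used in the fits below gave NC 3 a factor of 0.891, against 1.01 to 1.03 in the other libraries. It was not applied to these shares. Divided by the factors, the share without NPM1 is higher in NC 3 than in every siRNA-labelled library and lower in NC 1 and 2. The groups therefore overlap under this scaling, and they stay apart only in the raw shares.

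**Figure D1:**
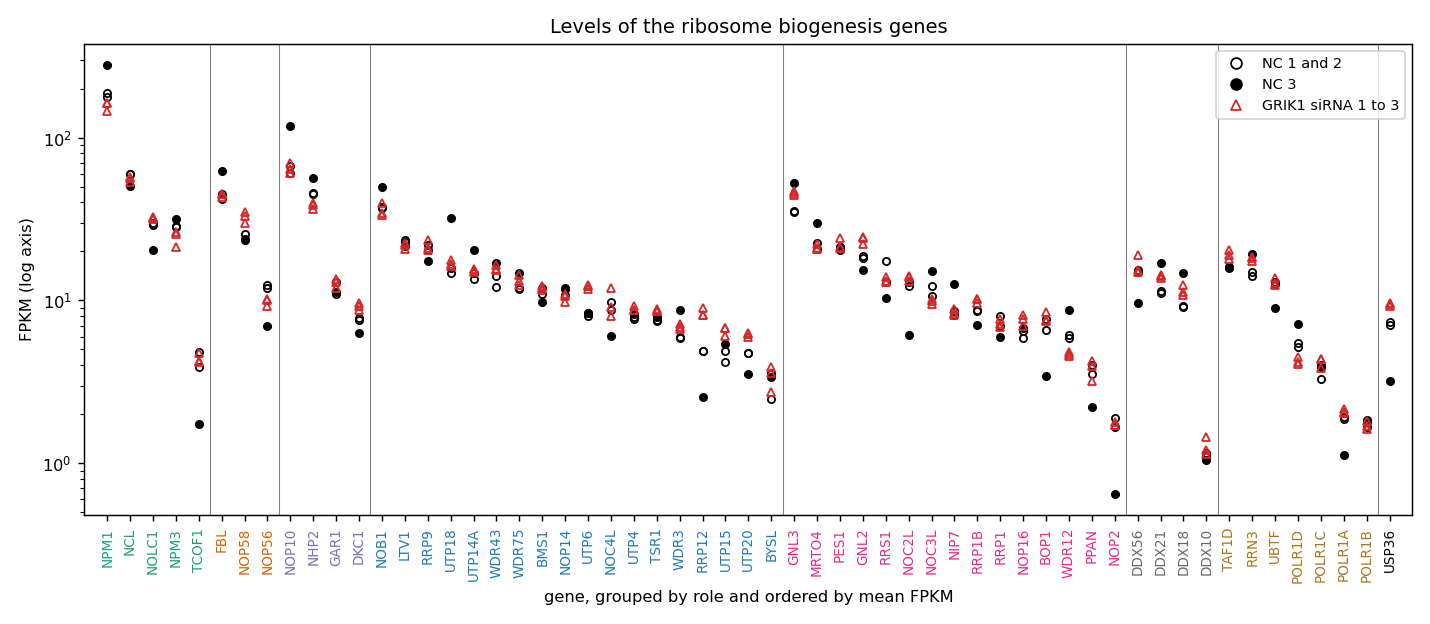
Each point is the FPKM of 1 gene in 1 library, on a log axis, with the 57 genes along the horizontal axis in role groups and ordered by mean FPKM within them. Open circles are NC 1 and 2, filled circles are NC 3 and triangles are the siRNA-labelled libraries. Levels run from 0.65 FPKM for NOP2 in NC 3 to 278 FPKM for NPM1 in NC 3, and NC 3 is often the highest or lowest point of a gene.

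No gene of the 57 passed the test between the groups with all 6 libraries. edgeR called 0 of 57 at an adjusted p under 0.05, where it called 3.09% of all tested genes, and the smallest adjusted p was 0.0536, for RRP12. An unadjusted p under 0.05 was reached by 12 genes (21.1%), below the 25.1% of all tested genes. The groups did not overlap for 19 genes (33.3%), 10 of them higher and 9 lower in the siRNA-labelled libraries, against 38.5% of all tested genes. By sign alone 32 genes were higher and 25 lower, and the log2 fold changes ran from -0.67 (WDR12) to 0.96 (RRP12) with a median of 0.04, beside -0.02 over all tested genes. DESeq2 called 4 genes higher, RRP12, UTP6, UTP20 and GNL2, where it called 5.43% of all tested genes higher, and 0 lower, where it called 5.14%. In bulk RNA, fewer cells that express a gene and less of its RNA per cell cannot be told apart.

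Without NC 3 the spread was smaller and 22 of the 57 genes were called, with 15 higher and 7 lower. The median SE of a log2 fold change over the 57 genes was 0.17 with all libraries and 0.07 without NC 3. The share called, 38.6%, was near the 35.2% of all tested genes, so the count as such is not a result about these genes. By direction, 26.3% were called higher, beside 16.9% of all tested genes, and 12.3% were called lower, beside 18.3%. With scaling by total counts alone the split was 18 higher and 5 lower. None of the 57 passed an absolute log2 fold change of 1 in addition, where 3.09% of all tested genes did. The median was 0.09, beside 0.01 over all tested genes. The sign differed between both fits for 14 of the 57 genes.

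**Figure D2:**
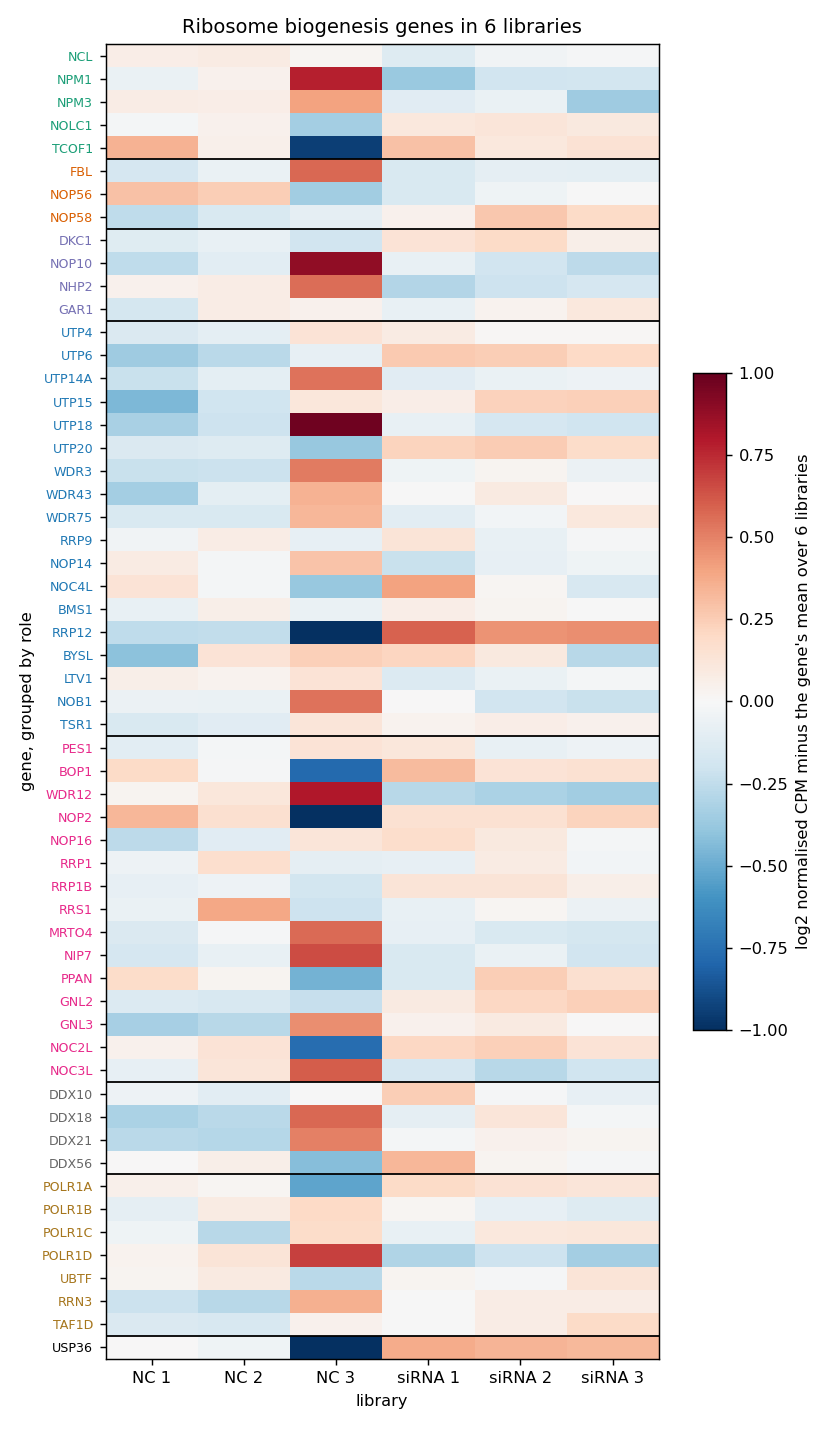
Rows are the 57 genes in role groups, columns are the 6 libraries, and colour is the log2 normalised CPM (counts scaled to the library size) minus the mean of the gene over the libraries, with values beyond 1 in either direction shown in the end colour. The NC 3 column holds most of the strong colours in both directions, while NC 1 and 2 resemble each other, as do the 3 siRNA-labelled libraries.

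Within the pathway, NC 3 departed from the other NC libraries gene by gene and not in 1 direction. It was above 1.5 times the mean of NC 1 and 2 in 15 of the 57 genes (26.3%, beside 19.0% of all tested genes) and below the inverse of that in 7 (12.3%, beside 27.9%). The ratios ran from 0.416 for NOP2 to 2.36 for UTP18. NC 3 was the highest of the 6 libraries in 28 genes and the lowest in 20, together 84.2% of the 57, against 71.9% of all tested genes. The 15 genes above had a median transcript GC content of 43.5% and the 7 below one of 57.8%. Over the 57 genes the ratio and the GC content had a Spearman correlation of -0.57, and over 15529 tested genes with a known GC content of -0.33. These correlations describe genes of the same 3 libraries, which are not independent, and the part of GC content in the fold changes was not tested.

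The largest group, with 18 genes, serves the small subunit processome and 40S maturation. Without NC 3, 6 of the 18 were called higher (UTP6, UTP15, UTP20, WDR3, WDR43 and RRP12) and 0 lower. In all this is 33.3%, near the 35.2% of all tested genes, of which 16.9% were higher and 18.3% lower. The counts in the smaller groups below stand against the same shares. With all libraries 0 were called and 11 of the 18 were higher by sign. RRP12 (chr10:97356358-97426076, minus strand) encodes a nucleolar factor needed for processing and export of both subunits. Its normalised CPM, the counts scaled to the library size after TMM, was 41.4, 41.5 and 24.6 in NC 1, 2 and 3 and 74.0, 67.3 and 68.1 in the siRNA-labelled libraries 1, 2 and 3. The groups did not overlap, and NC 3 was the lowest library. Group means were 35.8 ± 9.72 and 69.8 ± 3.66 (SD, n = 3 each), a 1.95-fold difference with a log2 fold change of 0.96 (SE 0.21, edgeR adjusted p = 0.0536). Without NC 3 the log2 fold change was 0.75 and passed (edgeR adjusted p = 3.4e-07), and over all alternatives its adjusted p lay between 3.6e-13 and 0.237.

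UTP6 (chr17:31860904-31901708, minus strand) and UTP20 (chr12:101280105-101386618, plus strand) belong to the processome that forms on the nascent precursor. UTP6 had 50.3, 53.2 and 60.6 normalised CPM in NC 1, 2 and 3 and 77.2, 76.3 and 73.6 in the siRNA-labelled libraries, with a log2 fold change of 0.47 (SE 0.12, edgeR adjusted p = 0.0762). UTP20 had 46.8, 47.4 and 39.8 under NC and 60.3, 61.8 and 58.9 in the others, with a log2 fold change of 0.43 (SE 0.12, edgeR adjusted p = 0.0915). For both genes every siRNA-labelled library lay above every NC library. Without NC 3 both passed, at log2 fold changes of 0.55 and 0.36. Over all alternatives the adjusted p of UTP6 ran from 1.8e-08 to 0.297 and that of UTP20 from 3.3e-04 to 0.326.

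UTP15 and UTP18 belong to different subcomplexes of the same processome, and each depended on NC 3. UTP15 had 26.1, 31.1 and 38.6 normalised CPM in NC 1, 2 and 3 and 37.2, 41.7 and 41.9 in the siRNA-labelled libraries. NC 3 overlapped with the second group, and the log2 fold change was 0.33 with all libraries (SE 0.16) and 0.50 without NC 3, where it passed. A share of 3.9% of the exonic bases of UTP15 is also exonic in ANKRA2 on the opposite strand, a gene with 13.1 FPKM. UTP18 had 39.5, 42.9 and 97.2 under NC and 46.9, 43.9 and 43.1 in the others. NC 3 alone was high, and the log2 fold change turned from -0.42 (SE 0.33) to 0.12 without it, which did not pass. Of the other members of the group, WDR3 (-0.09) and WDR43 (0.03) reached 0.20 and 0.25 without NC 3 and passed there, and the remaining 11 lay between -0.30 and 0.18 with all libraries. These 11 hold UTP4 and WDR75 of the early-binding subcomplex, RRP9 of the U3 snoRNP, the GTPase BMS1, the export factor LTV1 and the nuclease NOB1, and none of them was called in either fit.

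**Figure D3:**
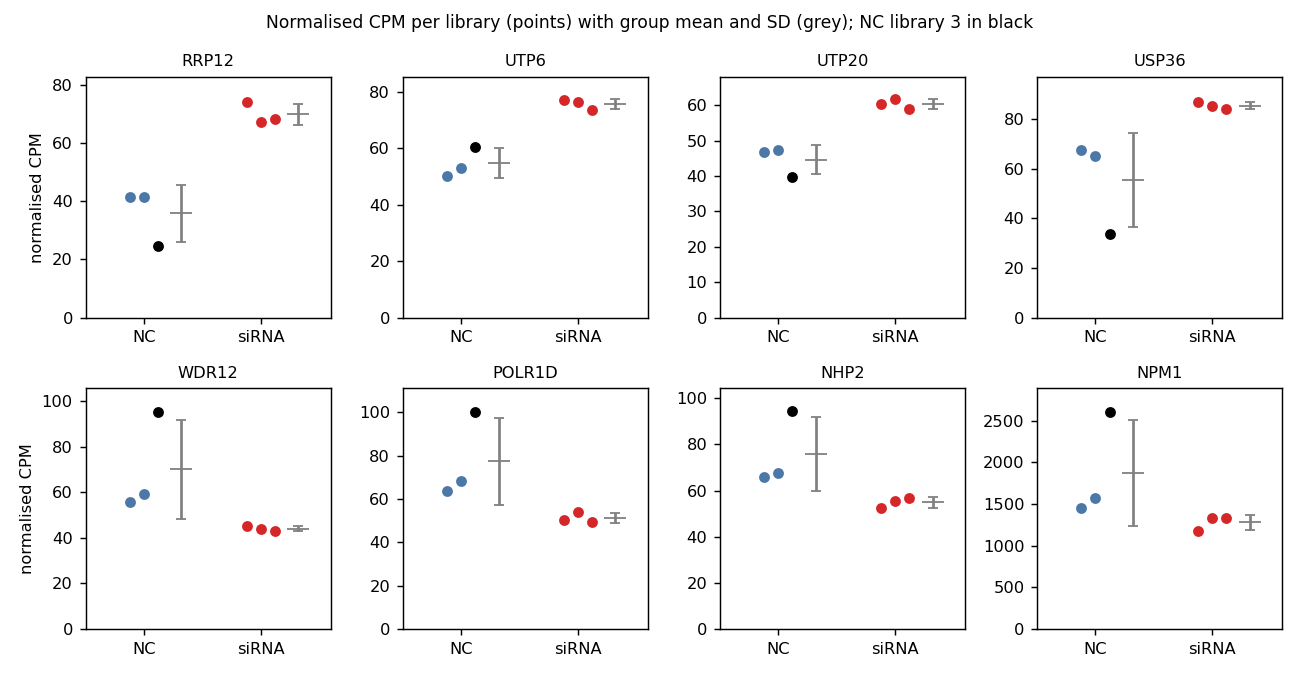
Each panel shows 1 gene, with its normalised CPM on the vertical axis from 0, points for the 3 libraries of each group, and the mean and SD of the group in grey. NC 3 is black. RRP12, UTP6, UTP20 and USP36 are higher in each siRNA-labelled library than in each NC library, and WDR12, POLR1D, NHP2 and NPM1 are lower, with NC 3 the farthest from the second group in 7 of the 8 panels and the nearest for UTP6.

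The 60S maturation group held 15 genes, and without NC 3 GNL2 and GNL3 were called higher and WDR12 and NOC3L lower. WDR12 (chr2:202874261-203014798, minus strand) encodes a subunit of the PeBoW complex, which it forms with PES1 and BOP1. Its normalised CPM was 55.8, 59.3 and 95.2 in NC 1, 2 and 3 and 45.2, 43.9 and 43.0 in the siRNA-labelled libraries. The groups did not overlap, and NC 3 was the highest library. WDR12 had the lowest log2 fold change of the 57 genes, -0.67 (SE 0.21, edgeR adjusted p = 0.117). Without NC 3 it was -0.38 and passed (edgeR adjusted p = 3.95e-04), and over all alternatives the adjusted p lay between 2.7e-04 and 0.344. Its partners did not share this direction, with log2 fold changes of -0.01 for PES1 and 0.35 for BOP1, neither of them called in either fit. The log2 ratio of WDR12 to PES1 in FPKM was -1.80, -1.79 and -1.27 under NC and -2.32, -2.17 and -2.23 in the others, without overlap. This ratio and those below were chosen after the values were seen and were not tested.

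GNL2 and GNL3 are nucleolar GTPases of the same family, and GNL3 is also known as nucleostemin. GNL2 had 106, 105 and 99.4 normalised CPM in NC 1, 2 and 3 and 124, 135 and 138 in the siRNA-labelled libraries, without overlap and with a log2 fold change of 0.35 (SE 0.11, edgeR adjusted p = 0.111). GNL3 had 111, 115 and 192 under NC and 144, 149 and 140 in the others. NC 1 and 2 lay below all libraries of the second group and NC 3 above them, so that the log2 fold change was 0.05 (SE 0.22) with all libraries and 0.36 without NC 3, where it passed. GNL2 was 0.33 without NC 3 and passed there too. NOP2, a methyltransferase of the large subunit RNA, had only 8.82, 7.81 and 3.46 normalised CPM against 7.78, 7.80 and 8.15. Its log2 fold change was 0.25 with all libraries and -0.07 without NC 3, and 54.4% of its exonic bases also lie in another gene model on the same strand. NOC3L was -0.46 and -0.24 in the respective fits. The other 8 genes of the group besides PES1 and BOP1, among them the paralogs RRP1 and RRP1B, lay between -0.32 and 0.33 with all libraries and were not called in either fit.

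Within each class of snoRNP, the genes called without NC 3 differed in direction. In box C/D snoRNPs, the methyltransferase FBL works with NOP56 and NOP58. NOP58 (chr2:202265736-202303661, plus strand) had 77.5, 83.2 and 86.7 normalised CPM in NC 1, 2 and 3 and 95.4, 111 and 105 in the siRNA-labelled libraries. The groups did not overlap and NC 3 lay near the other NC libraries, with a log2 fold change of 0.33 (SE 0.12, edgeR adjusted p = 0.141) and of 0.37 without NC 3, where it passed. NOP56 (chr20:2652593-2658393, plus strand) had 61.0, 59.1 and 39.1 against 44.7, 48.2 and 49.7. NC 3 was here the lowest library, and the log2 fold change was -0.16 (SE 0.18) with all libraries and -0.34 without NC 3, where it passed as lower. FBL had 89.2, 95.9 and 149 under NC and 90.3, 94.4 and 93.7 in the others, and its log2 fold change of -0.26 (SE 0.20) became 0.01 without NC 3. The log2 FPKM ratio of NOP58 to NOP56 was 0.94 and 1.09 in NC 1 and 2 and between 1.68 and 1.80 in the siRNA-labelled libraries, but NC 3, at 1.75, lay among the latter.

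In box H/ACA snoRNPs, DKC1 is the enzyme and NHP2, NOP10 and GAR1 are its core partners. DKC1 (chrX:154762742-154777689, plus strand) had 69.0, 71.2 and 65.6 normalised CPM in NC 1, 2 and 3 and 82.3, 85.8 and 78.3 in the siRNA-labelled libraries. NHP2 (chr5:178149463-178153894, minus strand) had 66.0, 67.4 and 94.4 against 52.2, 55.7 and 57.0. Neither gene overlapped between the groups, DKC1 being higher and NHP2 lower. The log2 fold change of DKC1 was 0.26 (SE 0.11, edgeR adjusted p = 0.189) and that of NHP2 was -0.47 (SE 0.16, edgeR adjusted p = 0.141). Without NC 3 they were 0.23 and -0.28 and both passed. The log2 FPKM ratio of DKC1 to NHP2 was -2.58, -2.56 and -3.17 under NC and -1.98, -2.01 and -2.18 in the others, without overlap. A share of 27.4% of the exonic bases of NHP2 is also exonic in RMND5B on the opposite strand, a gene with 3.69 FPKM, and the strand setting of the counting is not given in the sources used here. NOP10 had 94.4, 105 and 209 under NC and 107, 99.1 and 93.9 in the others. Its log2 fold change of -0.44 (SE 0.29) was 0.01 without NC 3, the only library that was high, and GAR1 was 0.04 and 0.07 in both fits.

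Among the scaffold and chaperone proteins, NPM1 and NCL were called lower without NC 3 and none higher. NPM1 (chr5:171387116-171411810, plus strand) encodes nucleophosmin, a nucleolar histone and ribosome chaperone. It had 1449, 1566 and 2599 normalised CPM in NC 1, 2 and 3 and 1174, 1327 and 1336 in the siRNA-labelled libraries. The groups did not overlap, and the gap between them was small beside the distance of NC 3 from the other NC libraries. The log2 fold change was -0.55 (SE 0.24, edgeR adjusted p = 0.204), and -0.24 without NC 3. NPM1 has many processed pseudogenes, so its counts are uncertain where reads match several places. Nucleolin, encoded by NCL (chr2:231453531-231483641, minus strand), had 528, 534 and 509 against 460, 492 and 500, with a log2 fold change of -0.11 (SE 0.12). Without NC 3 it was -0.13 and passed only narrowly (edgeR adjusted p = 0.0456). Over all alternatives the adjusted p of NCL lay between 0.0337 and 0.908. TCOF1, whose product treacle binds RNA polymerase I, had 54.6, 44.4 and 22.4 against 52.6, 46.3 and 47.6. Its groups overlapped, and the log2 fold change turned from 0.27 (SE 0.29) to -0.02 without NC 3. NPM3 (-0.37) and NOLC1 (0.21), which binds both classes of snoRNP, did not overlap between the groups and were not called in either fit.

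The RNA polymerase I group held 3 genes called without NC 3, RRN3 and TAF1D as higher and POLR1D as lower. RRN3 brings the polymerase to the promoter, and TAF1D is a subunit of the promoter selectivity factor. Their log2 fold changes were 0.07 and 0.17 with all libraries and 0.30 and 0.24 without NC 3. POLR1D (chr13:27620742-27744237, plus strand), a subunit shared by RNA polymerases I and III, had 63.6, 68.1 and 100.1 normalised CPM in NC 1, 2 and 3 and 50.4, 54.0 and 49.1 in the siRNA-labelled libraries. The groups did not overlap, and NC 3 was the highest library. The log2 fold change was -0.59 (SE 0.19, edgeR adjusted p = 0.116), and -0.36 without NC 3, where it passed. The 2 largest subunits differed from it. POLR1A had 37.4, 36.5 and 24.9 against 41.2, 39.8 and 39.2, a log2 fold change of 0.28 (SE 0.17) without overlap that was not called in either fit. POLR1B had 14.8, 16.6 and 18.1 against 15.9, 14.8 and 14.4, with overlap and a log2 fold change of -0.13. The log2 FPKM ratio of POLR1A to POLR1D was -1.44, -1.57 and -2.68 under NC and between -1.11 and -0.96 in the others, without overlap. POLR1C (0.08) and the architectural factor UBTF (0.09) were not called in either fit.

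Of the DEAD-box helicases, which unwind RNA during assembly, DDX18 and DDX21 were called higher without NC 3 and none lower. DDX18 had 69.9, 72.5 and 129.9 normalised CPM in NC 1, 2 and 3 and 81.9, 94.6 and 85.8 in the siRNA-labelled libraries. NC 1 and 2 were below the second group and NC 3 above it, and the log2 fold change turned from -0.06 (SE 0.24) to 0.30 without NC 3. DDX21 followed the same order, with -0.02 and 0.30. DDX56 had 54.2, 56.3 and 40.2 against 68.0, 55.1 and 53.6, and its groups overlapped (log2 fold change 0.23, SE 0.17). DDX10, the lowest of the 57 genes by mean FPKM, had 20.7, 19.9 and 21.4 against 25.5, 21.3 and 20.2, also with overlap (log2 fold change 0.11, SE 0.14). USP36 (chr17:78787381-78841441, minus strand) encodes a nucleolar deubiquitinase that acts on several proteins of this pathway. It had 67.6, 65.2 and 33.5 under NC and 87.2, 85.3 and 84.2 in the others, without overlap and with NC 3 the lowest library. Its log2 fold change was 0.63 (SE 0.25, edgeR adjusted p = 0.178), the highest after RRP12, and 0.37 without NC 3, where it passed.

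**Figure D4:**
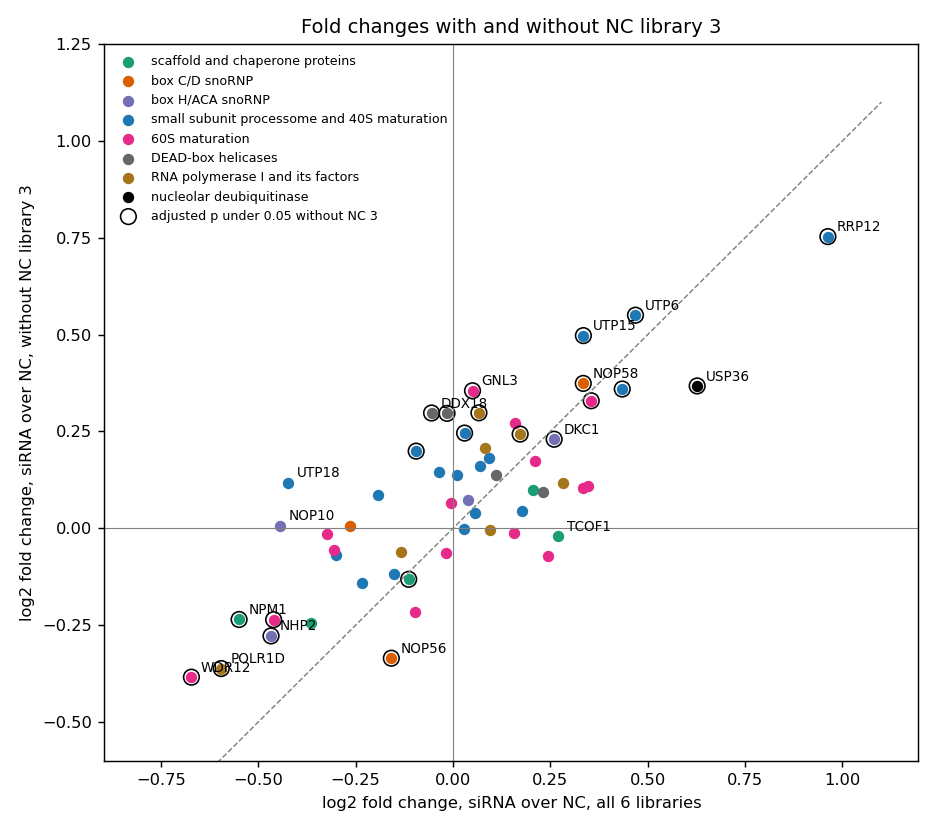
Each point is 1 of the 57 genes, with the log2 fold change of the siRNA-labelled libraries over NC from all 6 libraries on the horizontal axis and without NC 3 on the vertical axis, coloured by role group. Rings mark an adjusted p under 0.05 without NC 3, and on the dashed line both values are equal. RRP12 stands farthest out at 0.96 and 0.75, WDR12 lies at the other end at -0.67 and -0.38, and 14 genes have a different sign in both fits.

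The 10 genes that hold snoRNAs were described apart, because hosting is a property that the choice of genes did not use. Without NC 3, 5 of the 10 were called higher (NOP58, DKC1, WDR43, GNL3 and TAF1D) and 2 lower (NCL and NOP56), and of the 47 others 10 were called higher and 5 lower. These are 70.0% of the 10 and 31.9% of the 47, beside the 35.2% of all tested genes (16.9% higher and 18.3% lower), and the difference between the classes was not tested. With all libraries 0 were called in either class. NOP56 and NOP58, whose snoRNA sequences are shown above, thus differed in direction without NC 3.

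Other genes of the pathway were taken from a list of 99 further processing factors, exosome subunits and polymerase I factors, of which 98 were tested and PWP2 was not. With all libraries 2 of the 98 were called (2.04%, beside 3.09% of all tested genes), both higher. They were DDX31, a nucleolar helicase, with a log2 fold change of 0.65 (SE 0.13, edgeR adjusted p = 0.0488), and RIOK3, a kinase of 40S maturation, with 0.53 (SE 0.11, edgeR adjusted p = 0.0471). Both also passed without NC 3, at log2 fold changes of 0.61 and 0.53. Without NC 3, 36 of the 98 were called higher and 8 lower (44.9% in all, beside 35.2% of all tested genes, 16.9% higher and 18.3% lower). The median log2 fold change was -0.01 with all libraries and 0.13 without NC 3. MYC had 12.7, 12.2 and 9.69 FPKM in NC 1, 2 and 3 and 8.61, 8.30 and 8.97 in the siRNA-labelled libraries, without overlap and with a log2 fold change of -0.50 (SE 0.12, edgeR adjusted p = 0.0641). Without NC 3 it was -0.55 and passed as lower (edgeR adjusted p = 1.56e-05).

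Promoter windows of RefSeq, read as the 250 bases before a start on GRCh38.p14, were found for 49 of the 57 genes, with 59 windows in all. RRP12, DDX18, TCOF1, BOP1, NOLC1, RRP1B, RRS1 and NOP58 had none there. The E-box CACGTG, the letters that MYC is known to bind, occurred on either strand in 7 of the 59 windows (11.9%), against 6.34% of 35116 windows of all genes. The genes were DDX21, UTP20, NOP10, UTP4, UTP18, USP36 and UTP14A. The wider form CANNTG, which includes CACGTG, occurred in 29 windows (49.2%, against 61.8%) and the box CCAAT in 21 (35.6%, against 11240 of the 35116). Windows are shown for the genes with the highest and the lowest log2 fold change among those with a window, USP36 at chr17:78840815-78841064 and WDR12 at chr2:202911674-202911923, both on the minus strand. Capitals mark CACGTG, which the first holds once and the second not at all, and neither holds CCAAT. A second USP36 window (chr17:78841440-78841689) holds neither motif and is not shown. A match describes letters only.
USP36: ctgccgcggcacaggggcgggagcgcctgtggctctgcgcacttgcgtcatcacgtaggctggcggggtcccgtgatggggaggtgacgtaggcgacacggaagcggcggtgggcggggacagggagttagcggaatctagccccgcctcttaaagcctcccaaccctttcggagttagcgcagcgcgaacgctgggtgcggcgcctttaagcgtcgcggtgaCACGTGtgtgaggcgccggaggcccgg
WDR12: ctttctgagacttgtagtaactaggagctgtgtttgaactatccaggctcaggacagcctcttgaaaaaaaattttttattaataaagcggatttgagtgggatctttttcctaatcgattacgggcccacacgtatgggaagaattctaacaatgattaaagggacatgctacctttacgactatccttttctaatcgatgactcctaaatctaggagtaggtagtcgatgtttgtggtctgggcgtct

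Several of these genes share exonic bases with a neighbour. In GENCODE 29, 30 of the 57 do so with at least 1 other gene and 22 with a gene on the opposite strand. PPAN shares 56.0% of its exonic bases with the readthrough gene PPAN-P2RY11, and NOP16 shares 7.9% with HIGD2A, which had 86.1 FPKM. The opposite-strand share was 20.7% for TSR1 with SRR, 20.2% for NIP7 with COG8 and 17.1% for NOP14 with NOP14-AS1. The values of these genes are uncertain to the extent that reads of the neighbour were counted on them.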

How the data were processed

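Total RNA of U87-MG cells was sequenced in 3 NC libraries and 3 libraries with the GRIK1 siRNA label, and each was grouped by that label. The authors deposited 1 table of whole-number read counts per gene, without normalization, and of FPKM values. According to the submitters' processing notes, reads were trimmed with cutadapt 1.9.1 and HISAT2, HTSeq and GRCh38 were used. The strand setting is not given in the sources used here. The deposited FPKM values were reproduced from the counts, the library total and the exonic size for 100% of values, within 0.0051.

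From the counts, genes with a mean FPKM of at least 0.5 (15870) were tested by quasi-likelihood in edgeR (version 4.0.16, under R 4.3.3), after TMM scaling, without a block and with Benjamini-Hochberg adjustment over all tested genes. The SE was derived from the log2 fold change and the F statistic. Calls used an adjusted p under 0.05. Alternatives were other scalings and filters, DESeq2 1.42.0, the replicate number as a block, log2(FPKM + 1) and log2(FPKM + 0.1) for the median, and each library left out. NC 3 left out together with other scalings or DESeq2 was added after the data were seen. The fits were tested on simulated counts drawn from a profile shared by all libraries. No simulated library was made to stand apart as NC 3 did, so this test cannot check the calls that depend on NC 3. Annotation came from GENCODE 29, and 18 of the 57 genes have the same start and end there as in the table. Tables were handled in pandas 2.3.3 and numpy 2.4.6 under Python 3.11.15.

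The 57 genes and the lists (roles, 99 other pathway genes, markers) were chosen with earlier results of these data known. Values per library are given for the genes with the highest and lowest log2 fold change of each role, the 3 highest and 3 lowest mean FPKM, and the 10 largest absolute log2 fold changes without NC 3. Other genes are given by counts and ranges. No 2 libraries agreed within sampling noise, since the smallest mean chi-square between libraries was 2.37 per gene. Precision was limited by the 11099909 to 14006968 counts per library and by 3 libraries per group.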

Additional observations from a re-analysis of the deposited data

How the results depend on the processing

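NC 3 decided most calls. Among the 57 genes 0 were called lower and 0 higher with all libraries, and leaving out 1 library in turn gave 0 to 7 lower and 0 to 15 higher, with 5591 calls over all tested genes without NC 3 and 0 with any other library left out. With NC 3 left out, 6, 5, 7 and 5 of the 57 were called lower and 15, 18, 15 and 14 higher under RLE scaling, total counts, upper quartile scaling and DESeq2, and 5594, 5521, 5596 and 4210 genes were called in all. With all libraries, no filter gave 1 lower (WDR12), 1 higher (RRP12) and 1403 calls in all, total counts gave 1 higher (UTP6), and DESeq2 gave 4 higher and 1676 in all. The replicate block gave 0 calls over all tested genes and 0 among the 57. Whether the replicate numbers pair the libraries is not stated. The correlations of same-numbered deviations from the group mean were -0.07, 0.04 and -0.04. These values cannot decide it, because NC 3 moves the NC mean and so enters the deviation of every NC library. The median log2 fold change, 0.04, was 0.13 with total counts (0.07 over all tested genes), 0.12 with total counts and NC 3 left out, 0.12 as log2(FPKM + 1) and 0.14 as log2(FPKM + 0.1).

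For the 25 genes given per library, 315 of 325 values under the alternatives kept their direction, and 18 genes kept it throughout. With 1 library left out in turn, the log2 fold change ran from -0.020 to 0.55 for TCOF1, -0.40 to 0.0060 for FBL, -0.65 to 0.0064 for NOP10, -0.65 to 0.12 for UTP18, -0.071 to 0.50 for NOP2, -0.087 to 0.36 for GNL3 and -0.21 to 0.30 for DDX18. DDX18 was also 0.057 with total counts and 0.0042 with the replicate block. For GNL3 it was leaving out NC 1 or NC 2 that turned the sign, and for the other 6 leaving out NC 3. The labels are not backed by GRIK1, the strand setting is unknown, and low counts such as those of NOP2 limit the precision.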
